A study of Mus musculus with 100 samples.

Results

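Col1a1, Col1a2, Col3a1, Col5a1, Col5a2, Col5a3, Col6a1, Col6a2 and Col6a3 encode chains of the collagens that fill fibrous connective tissue, and their transcripts were followed in mouse knee joints before and after ligament injury. The genes were taken by name from a table of RNA sequencing counts, in which they are 9 of 17310 genes, and all 9 were measured in every library. Col1a1 and Col1a2 form type I collagen, Col3a1 alone forms type III, the 3 Col5a genes form type V and the 3 Col6a genes form type VI. Types I, III and V are fibrillar collagens. Type VI is not, since it builds beaded microfilaments around cells and fibrils, so the genes are described here by type.

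The joints came from inbred MRL/MpJ, C57BL/6 and STR/ort mice, which the labels call not, moderately and highly susceptible to post-traumatic osteoarthritis. At an age of 10 weeks the right knee received a compressive load of 10 to 12 N, which ruptures the anterior cruciate ligament, and the other knee of injured mice served as the uninjured contralateral joint. Injured and uninjured contralateral joints were collected 1-day, 1-week or 2-weeks later, from mice older by that time, and joints of mice without injury at 0-day, giving 100 libraries in 21 groups. There were 5 libraries in a group, except for 4 in each 0-day group and in the uninjured joints of MRL/MpJ and STR/ort at 1-week. The labels name no other allele or agent, the mice were under isoflurane during the load and received buprenorphine after it, and their sex is not given in the sources used here. Whole joints cut at the femur and tibia were used, with traces of soft tissue, so bone, cartilage, marrow, synovium, ligament and muscle were measured together and a lower level can come from fewer cells of a type or from less RNA per cell, which cannot be told apart. The 2-weeks libraries form experimental batch 2 and all others batch 1. The total count per library was 6182016 to 20986027. Joints are tied to mice by their labels only at 2-weeks, so p-values elsewhere measure the spread between these libraries, which may in part be technical. Time and batch cannot be told apart at 2-weeks, and no level at 2-weeks was tested against an earlier time point.

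Type I collagen is the main protein of tendon, ligament and skin, and of bone, where osteoblasts make it. Type III forms thinner fibrils that are laid down early in healing wounds, and it often shares fibrils with type I. Type V sits inside type I fibrils and limits their width, while type VI links cells to the surrounding matrix. Fibroblasts make all of these types, and their procollagens are hydroxylated and folded in the cell, trimmed outside it, and crosslinked into fibrils.

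The genes lie on 6 chromosomes of GRCm38.p6, the genome to which the reads were aligned as mm10. Col1a1 is at chr11:94936224-94953042 with 51 exons and Col1a2 at chr6:4505618-4541543 with 52 exons, both on the plus strand. Col3a1 (chr1:45311538-45349706, plus strand) and Col5a2 (chr1:45374331-45503282, minus strand) are neighbours that end towards each other, 24624 bases apart. Col6a1 (chr10:76708792-76726044) and Col6a2 (chr10:76595756-76623630) are both on the minus strand and lie 85161 bases apart. Col5a1 is at chr2:27886381-28039510 on the plus strand, Col5a3 at chr9:20770050-20815117 and Col6a3 at chr1:90766860-90844001, both on the minus strand.

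The stretches of 250 bases before the transcription start of Col1a2, Col3a1 and Col6a1 are shown because these genes stand for the types whose levels parted after injury. They are RefSeq sequences of GRCm38.p6, read 5′ to 3′ on the strand of the gene, and capitals mark short motifs searched on both strands. The motifs were CCAAT (the CCAAT box), TATAA (the TATA box), GGGCGG (the GC box), CAGACA (an element bound by SMAD proteins) and CACGTG (an E-box).
Col1a2, chr6:4505368-4505617, plus strand: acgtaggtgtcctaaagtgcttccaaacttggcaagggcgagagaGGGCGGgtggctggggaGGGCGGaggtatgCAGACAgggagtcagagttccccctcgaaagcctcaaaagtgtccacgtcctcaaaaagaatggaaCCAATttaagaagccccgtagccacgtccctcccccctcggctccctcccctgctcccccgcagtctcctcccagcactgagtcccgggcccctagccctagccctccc
Col3a1, chr1:45311288-45311537, plus strand: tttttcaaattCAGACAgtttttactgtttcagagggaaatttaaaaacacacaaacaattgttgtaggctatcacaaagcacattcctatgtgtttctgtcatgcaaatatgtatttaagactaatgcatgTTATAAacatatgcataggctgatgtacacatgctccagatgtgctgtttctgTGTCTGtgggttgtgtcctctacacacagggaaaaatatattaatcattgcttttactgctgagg
Col6a1, chr10:76726045-76726294, minus strand: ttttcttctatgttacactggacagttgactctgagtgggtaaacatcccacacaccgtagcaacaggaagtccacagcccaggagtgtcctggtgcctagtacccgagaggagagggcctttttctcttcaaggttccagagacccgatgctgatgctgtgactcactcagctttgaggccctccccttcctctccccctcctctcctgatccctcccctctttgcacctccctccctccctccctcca
The Col1a2 stretch holds a CCAAT box, 2 GC boxes and 1 CAGACA, that of Col3a1 holds CAGACA in both orientations and a pair of overlapping TATAA matches, and that of Col6a1 holds none of the 5 motifs. Of 32851 stretches of the same length before other transcription starts, 33.8% hold CCAAT, 22.8% TATAA, 32.7% GGGCGG, 17.1% CAGACA and 6.02% CACGTG. These matches describe the letters only, and binding at them was not measured. The stretches of 7 of the 9 genes were read, those of Col1a1 and Col5a2 not being among the sequences used here.

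Across the 21 groups, injured STR/ort joints at 1-week had the highest mean level of all 9 genes. Levels are given in CPM, the counts of a gene relative to the scaled library size, on a linear scale. Col3a1 spanned the widest range, from 840 ± 51.8 CPM (SD, n = 4) in MRL/MpJ at 0-day to 19566 ± 4167 CPM (SD, n = 5) in injured STR/ort joints at 1-week, or 23.3-fold. Type I spanned the narrowest range, 3.1-fold for Col1a1 and 2.64-fold for Col1a2, with the lowest mean of Col1a1 in uninjured C57BL/6 joints at 1-week. The type VI genes spanned 12.8-fold to 17.9-fold and the type V genes 7.5-fold to 14-fold. The lowest means of Col1a2, Col5a2, Col6a1 and Col6a2 were in uninjured MRL/MpJ joints at 2-weeks. Their spans therefore cross the batches and were not tested. Ordered by mean level, most neighbouring groups overlapped in their libraries, for 18 to 20 of the 20 neighbouring pairs of each gene. The highest group stood clear of the next for Col3a1, Col5a2, Col6a1, Col6a2 and Col6a3 and overlapped it for Col1a1, Col1a2, Col5a1 and Col5a3. Col5a3 was the scarcest, yet had at least 175 counts in every library.

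**Figure D1:**
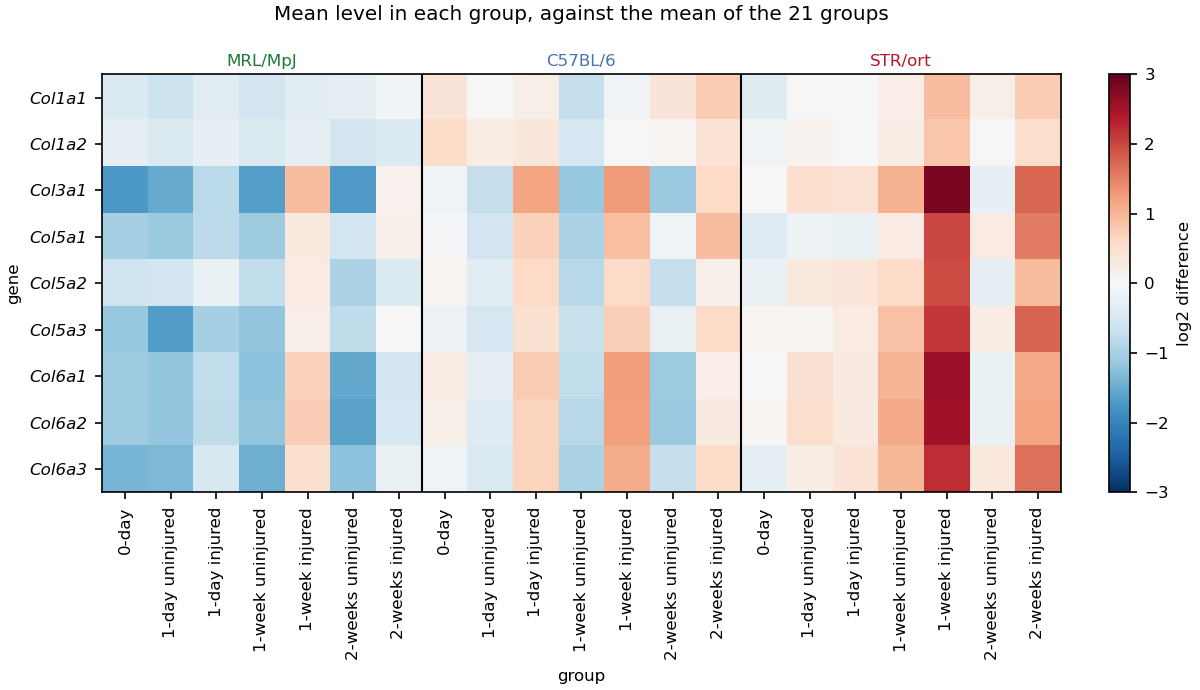
Mean level of each of the 9 genes (rows) in each of the 21 groups (columns), as the log2 difference from that gene's mean over the groups, on a colour scale from −3 to 3. Injured STR/ort joints at 1-week are the highest column for every gene, and the Col1a1 and Col1a2 rows vary least.

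The 9 genes took 1.26% ± 0.166 (SD, n = 5) of all counts in uninjured MRL/MpJ joints at 1-day and 6.00% ± 1.36 (SD, n = 5) in injured STR/ort joints at 1-week. Divided by transcript length, which allows genes to be compared, type I made up most of these transcripts in uninjured joints, with group means from 65.8% to 87.9%. At 1-day its share was 71.2% ± 5.7 (SD, n = 5) in uninjured and 70.8% ± 4.4 (SD, n = 5) in injured STR/ort joints, less than the spread apart, and 83.2% and 66.2% in C57BL/6. At 1-week the share was lower in the injured joints of each strain. In MRL/MpJ at 1-week type I was 85.0% of the summed per-kilobase level in uninjured joints and 60.5% in injured joints, and type III 6.7% and 24.6%. In C57BL/6 at 1-week the type I share was 80.2% and 57.4%, and in STR/ort 65.8% and 48.7%. In injured STR/ort joints at 1-week type III was 33.0% of the summed level, type VI 11.7% and type V 6.6%.

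At 0-day the strains already differed. Col3a1 measured 916, 812, 826 and 804 CPM in MRL/MpJ, 2780, 2247, 1949 and 3288 CPM in C57BL/6, and 3029, 2123, 3133 and 2638 CPM in STR/ort. The MRL/MpJ joints lay below all joints of both other strains. Genes were called at a fold change above 1.5 and an adjusted p below 0.05, from edgeR's quasi-likelihood test with Benjamini-Hochberg adjustment over all 17310 genes. By this rule Col3a1 was 3.26-fold higher in STR/ort than in MRL/MpJ (log2 1.70, SE 0.145, adjusted p = 4.75e-08) and 3.15-fold higher in C57BL/6 than in MRL/MpJ (log2 1.65, SE 0.144, adjusted p = 8.34e-08), while STR/ort and C57BL/6 differed by 0.05 on the log2 scale.

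Of the 9 genes, 6 were higher in STR/ort than in MRL/MpJ at 0-day, where 8.34% of all genes were called higher. These were Col3a1, the type VI genes (log2 1.08 for Col6a1, 1.14 for Col6a2 and 1.13 for Col6a3), Col5a3 (1.19) and Col5a1 (0.62), the call of Col5a1 being lost without MRL/MpJ replicate 3 (0.58) or STR/ort replicate 3 (0.51). Col1a1 and Col1a2, at 0.07 and 0.20, and Col5a2, at 0.40, were not called. All 9 were higher in C57BL/6 than in MRL/MpJ, against 9.64% of all genes, with log2 differences from 0.73 for Col5a2 to 1.65 for Col3a1. Only type I was lower in STR/ort than in C57BL/6, against 5.99% of all genes called lower, with Col1a1 at log2 −0.79 (SE 0.13, adjusted p = 0.000141) and Col1a2 at −0.69. Col1a1 measured 9010 to 13194 CPM in C57BL/6, 5226 to 6966 CPM in MRL/MpJ and 5817 to 7572 CPM in STR/ort, so C57BL/6 stood clear of the others.

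Markers of several tissues moved with these strain differences. The summed level of 12 muscle markers was 38034 to 61682 CPM in C57BL/6 at 0-day against 83700 to 102478 CPM in MRL/MpJ and 88578 to 100717 CPM in STR/ort, and 11 of the 12 were called lower in C57BL/6 than in MRL/MpJ. The 7 fibroblast markers summed to 265 to 341 CPM in MRL/MpJ, 434 to 607 CPM in C57BL/6 and 437 to 578 CPM in STR/ort, and 4 of the 8 bone markers were higher in C57BL/6 than in MRL/MpJ. All 4 tendon markers (median log2 1.57), 6 of 7 cartilage markers (1.20) and 3 of 6 macrophage markers were also higher in C57BL/6 than in MRL/MpJ. In STR/ort against MRL/MpJ, 5 of the 7 fibroblast markers, 3 of the 4 tendon markers (1.11) and 2 of the 7 cartilage markers were higher, and 1 muscle marker was called in each direction, while 3 of 3 erythroid markers (−1.21) and 2 of 5 proliferation markers were lower. In STR/ort against C57BL/6, where type I was lower, 11 of 12 muscle markers were higher, and 3 cartilage, 3 macrophage, 2 bone and 2 erythroid markers were lower, 1 cartilage and 1 bone marker being higher. With the mean log2 level of the muscle markers as a covariate, an alternative chosen after the data were seen, some calls at 0-day were lost. Those of Col1a1 and Col1a2 were lost (STR/ort against C57BL/6 −0.13 and −0.27, C57BL/6 against MRL/MpJ 0.35 and 0.56), as was that of Col5a2 (0.31). Col3a1 and the type VI genes stayed called in both comparisons with MRL/MpJ. With 2 factors of unwanted variation (RUVg) estimated from housekeeping genes, 5 of the 17 calls at 0-day remained, all of them in STR/ort against MRL/MpJ, and Col3a1 in C57BL/6 against MRL/MpJ, at 1.14, was not called. The part of other tissues in these differences was not tested beyond this.

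At 1-day post-injury, the injured joints of C57BL/6 had up-regulated types III, V and VI, those of MRL/MpJ 3 of the 9 genes, and those of STR/ort none. Col3a1 measured 7026, 4464, 5210, 8437 and 6122 CPM in injured C57BL/6 joints and 1957, 1770, 1283, 1677 and 1794 CPM in the uninjured contralateral joints. Every injured joint was higher than every uninjured one, by 3.68-fold on the fitted means (log2 1.88, SE 0.178, adjusted p = 3.61e-09). In STR/ort it measured 3201, 3873, 3482, 3524 and 4559 CPM in injured joints and 2616, 5853, 3272, 4574 and 3266 CPM in uninjured joints. These overlapped fully, with a log2 difference of −0.09 (SE 0.172, adjusted p = 0.827).

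In C57BL/6, 7 of the 9 genes were higher in injured joints at 1-day, where 4.26% of all genes were called higher, and leaving out any single library gave the same count. Besides Col3a1 they were Col5a1 (log2 1.26), Col5a2 (0.94), Col5a3 (0.96), Col6a1 (1.04), Col6a2 (1.06) and Col6a3 (1.13). Col1a1 and Col1a2 measured 0.17 and 0.13. In MRL/MpJ, Col3a1 (0.72, SE 0.173, adjusted p = 0.0105), Col5a3 (0.69) and Col6a3 (0.88, SE 0.137, adjusted p = 7.84e-05) were higher, against 1.53% of all genes. Without injured replicate 2 of MRL/MpJ, only Col6a3 of these was called, with Col3a1 at 0.60 and Col5a3 at 0.57. Col6a3 measured 263, 331, 219, 245 and 218 CPM in injured and 138, 150, 130, 151 and 133 CPM in uninjured MRL/MpJ joints, which did not overlap.

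In STR/ort at 1-day, 0 of the 9 genes were called by edgeR, where 4.31% of all genes were called in either direction. None had an unadjusted p under 0.05, DESeq2 called 0, and leaving out any single library gave 0. The log2 differences lay between −0.26 and 0.16. The median over the 9 genes was −0.08 in STR/ort, 1.04 in C57BL/6 and 0.42 in MRL/MpJ, beside medians over all genes between −0.02 and 0.01.

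The injury response at 1-day was smaller in STR/ort than in C57BL/6 for 7 of the 9 genes by the interaction test, where 2.48% of all genes were called lower. The difference was −1.97 on the log2 scale for Col3a1 (SE 0.245, adjusted p = 4.91e-06), −1.35 for Col5a1, −0.92 for Col5a2, −0.82 for Col5a3, −1.25 for Col6a1, −1.32 for Col6a2 and −0.97 for Col6a3. Those of Col1a1 (−0.23) and Col1a2 (−0.25) were not called. In C57BL/6 the response was larger than in MRL/MpJ for Col3a1 (1.16, SE 0.244, adjusted p = 0.0242) and Col5a1 (0.93, SE 0.182, adjusted p = 0.0132), against 0.283% of all genes, and scaling by housekeeping genes ended both calls (1.10 and 0.87). For Col3a1 leaving out any of 5 single libraries also did so. Between STR/ort and MRL/MpJ 0 of 9 were called by edgeR and by DESeq2, against 0.162% of all genes, although 7 had an unadjusted p under 0.05, and the value of Col3a1 was −0.81 (adjusted p = 0.275).

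The levels of both joints differed between the strains at 1-day. In uninjured joints at 1-day, 6 of the 9 genes were higher in STR/ort than in C57BL/6, against 5.73% of all genes, with Col3a1 2.32-fold higher, Col6a2 at log2 0.91 and Col5a3 at 0.61. Without uninjured replicate 2 of STR/ort, 3 were called, and Col5a2, Col5a3 and Col6a3 measured 0.56, 0.56 and 0.55. In injured joints, Col3a1 (−0.75, adjusted p = 0.00122) and Col5a1 (−0.92) were lower in STR/ort than in C57BL/6, against 7.48% of all genes. These comparisons and the interaction share their libraries. All 9 were higher in uninjured STR/ort than in MRL/MpJ joints (13.1% of all genes), 4.19-fold for Col3a1, and 5 in injured ones (10.2%). C57BL/6 exceeded MRL/MpJ for 7 in uninjured joints (9.0% of all genes) and for 8 in injured joints (10.0%), where Col3a1 was 4.02-fold higher.

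Muscle and fibroblast markers differed in the joints at 1-day as well. In injured STR/ort joints 6 of 12 muscle markers, 2 of 4 tendon markers, 3 of 5 fat markers, 1 of 7 cartilage markers and 1 of 7 fibroblast markers were lower than in uninjured joints, and the summed fibroblast level was 378 to 637 CPM against 568 to 813 CPM. In injured C57BL/6 joints it was 547 to 700 CPM against 416 to 596 CPM, with 3 of the 7 fibroblast markers higher and 1 muscle marker called in each direction. Of 6 macrophage markers 2 were higher in injured C57BL/6 joints, as were 1 of 4 tendon markers and the 1 skin marker tested (log2 0.73), and 1 cartilage marker was called in each direction. In MRL/MpJ no fibroblast or muscle marker was called by edgeR (2 of each list had an unadjusted p under 0.05), and 1 tendon and 1 cartilage marker were higher. The part of these markers in the collagen values was not tested.

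**Figure D2:**
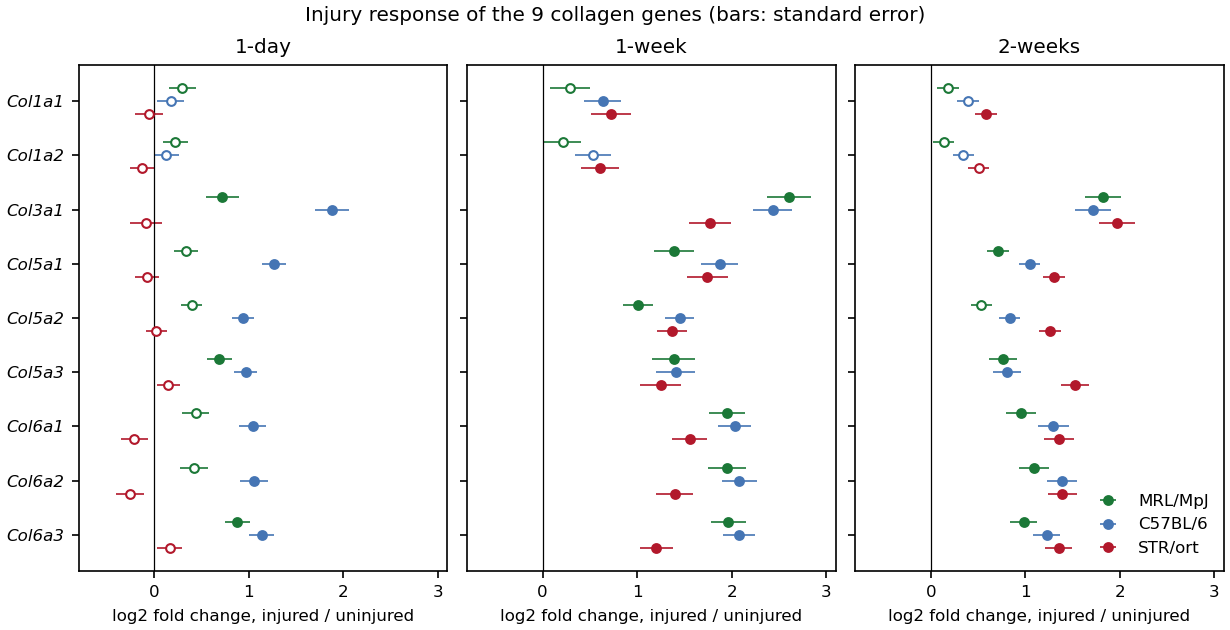
Log2 fold change of injured against uninjured contralateral joints for the 9 genes, with a panel for each time after injury and a colour for each strain. Bars are standard errors and filled points were called. Types III, V and VI lie near 0 in STR/ort at 1-day and between 1.20 and 1.77 at 1-week, while Col1a1 and Col1a2 reach at most 0.72.

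At 1-week post-injury, types III, V and VI were up-regulated in the injured joints of all 3 strains. Col3a1 measured 5158, 4927, 6039, 5150 and 4883 CPM in injured and 820, 703, 860 and 1130 CPM in uninjured MRL/MpJ joints. In C57BL/6 it measured 6446, 6581, 5628, 6205 and 8529 CPM in injured and 864, 1125, 1780, 1361 and 1162 CPM in uninjured joints. In STR/ort it measured 24869, 22824, 17065, 14790 and 18283 CPM in injured and 7349, 6670, 2723 and 6167 CPM in uninjured joints. In no strain did injured and uninjured joints overlap, and the uninjured STR/ort joints reached the levels of the injured joints of the other strains in 3 of 4 libraries.

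The fold change of Col3a1 at 1-week was 6.09 in MRL/MpJ (log2 2.61, SE 0.23, adjusted p = 9.81e-09), 5.40 in C57BL/6 (2.43, SE 0.209, adjusted p = 1.45e-09) and 3.41 in STR/ort (1.77, SE 0.221, adjusted p = 7.70e-07). The type VI genes rose by log2 1.95 to 1.97 in MRL/MpJ, 2.03 to 2.08 in C57BL/6 and 1.20 to 1.56 in STR/ort. Col5a1, whose chain sits inside type I fibrils, rose by 1.39, 1.87 and 1.74 in the same order. Col6a3 measured 740, 850, 602, 690 and 959 CPM in injured and 146, 181, 244, 171 and 184 CPM in uninjured C57BL/6 joints. All of its injured joints were above all of its uninjured ones.

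Type I changed less. Col1a1 measured 22637, 19198, 11717, 12044 and 15269 CPM in injured and 12486, 9268, 7914 and 9393 CPM in uninjured STR/ort joints at 1-week. The groups overlapped, and the difference was 1.65-fold (log2 0.72, SE 0.212, adjusted p = 0.014). For Col1a2 it was 1.52-fold (0.60, SE 0.199, adjusted p = 0.0283). In C57BL/6, Col1a1 was called at 1.55-fold (0.63, SE 0.198, adjusted p = 0.0332) and Col1a2, at 0.53, was not. In MRL/MpJ they measured 0.29 and 0.21 and were not called. The calls of type I rested on single libraries: that of Col1a1 was lost without any of 5 single C57BL/6 libraries (injured replicate 3 or 5, uninjured 1, 2 or 3, at 0.46 to 0.64) or without STR/ort injured replicate 1 (0.57) or uninjured replicate 3 (0.64), and that of Col1a2 in STR/ort without any of 5 (injured 1 or 2, uninjured 2, 3 or 4, at 0.47 to 0.58) and with replicates as blocks (0.58). The labels do not say whether replicate numbers mark the same mouse at 1-week.

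In all, 7 of the 9 genes were called higher in MRL/MpJ at 1-week, 8 in C57BL/6 and 9 in STR/ort, where 2.93%, 4.75% and 5.67% of all genes were called higher. For 7 genes in each strain, all but type I, no injured joint overlapped an uninjured one, which was so for 8.75%, 10.0% and 13.7% of all genes. The median over the 9 genes was 1.39, 1.87 and 1.37, beside all-gene medians of −0.01, −0.01 and −0.03.

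**Figure D3:**
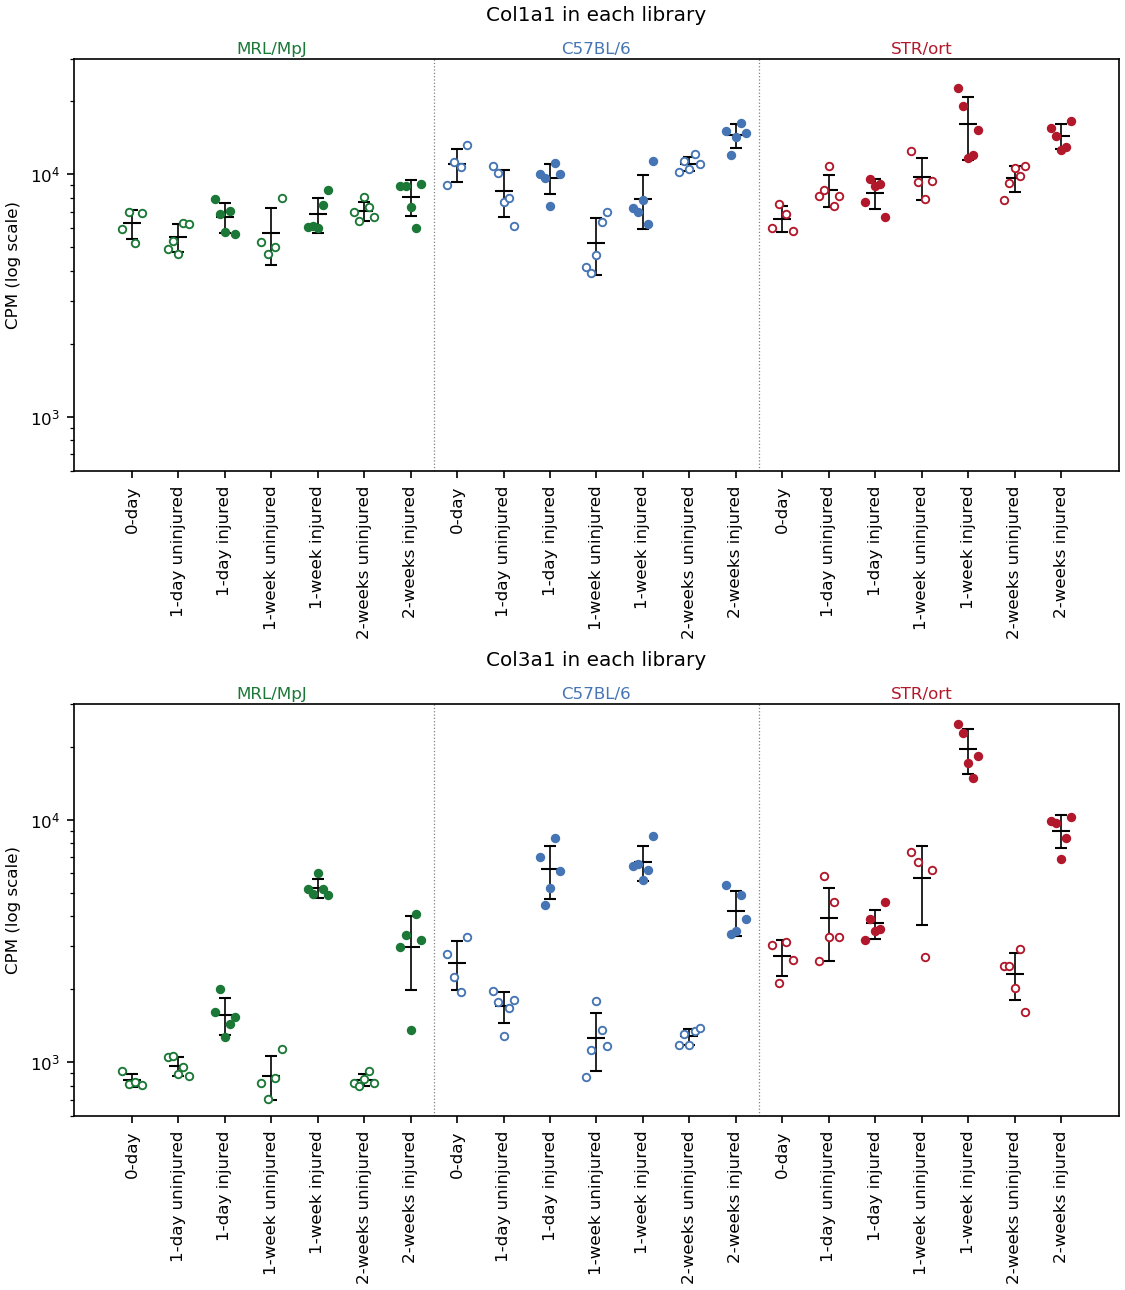
Level of Col1a1 and Col3a1 in each of the 100 libraries (points) as CPM on a log axis, by strain, time and joint, with mean ± SD. Filled points are injured joints and open points are 0-day or uninjured joints. Col3a1 separates injured from uninjured joints at 1-week and 2-weeks in every strain, and the Col1a1 groups overlap more.

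The markers at 1-week moved with these changes. The 7 fibroblast markers summed to 1114 to 1265 CPM in injured and 472 to 1029 CPM in uninjured STR/ort joints, to 606 to 675 against 310 to 359 CPM in C57BL/6, and to 527 to 623 against 271 to 314 CPM in MRL/MpJ. Of the 7, 2 were called higher in STR/ort, 5 in C57BL/6 and 5 in MRL/MpJ, and of 4 tendon markers 4, 3 and 3. Of 7 cartilage markers 1, 3 and 2 were higher, and 3 neutrophil markers and 1 macrophage marker were lower in STR/ort. Of the 12 muscle markers, 10 were lower in STR/ort, summing to 16213 to 35408 CPM in injured and 32151 to 61284 CPM in uninjured joints, while 5 were lower in C57BL/6 and 0 were called in MRL/MpJ by edgeR, with 2 at an unadjusted p under 0.05. Of 8 bone markers, 4 were lower in STR/ort and 1 in C57BL/6. With the mean log2 level of the muscle markers as a covariate, the type I calls were lost (Col1a1 0.23 in C57BL/6 and 0.24 in STR/ort, Col1a2 0.16 in STR/ort). Types III, V and VI stayed called in each strain. How far fibroblast number accounts for the values was not tested.

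At 2-weeks, Col3a1 was still 3.53-fold higher in injured joints of MRL/MpJ (log2 1.82, SE 0.19, adjusted p = 1.43e-06). It was 3.29-fold higher in C57BL/6 (1.72, SE 0.189, adjusted p = 5.38e-07) and 3.92-fold in STR/ort (1.97, SE 0.191, adjusted p = 6.33e-09). The labels pair both joints of a mouse at this time, and these edgeR fits did not use the pairing. Col3a1 measured 2982, 3348, 1352, 4088 and 3181 CPM in injured and 821, 798, 854, 917 and 819 CPM in uninjured MRL/MpJ joints. Injured replicate 3 was below the others but above every uninjured joint. In STR/ort it measured 9868, 9653, 6868, 8382 and 10298 CPM in injured and 2487, 2489, 2025, 2929 and 1603 CPM in uninjured joints, which stood apart.

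At this time 6 of the 9 genes were called higher in MRL/MpJ, 7 in C57BL/6 and 8 in STR/ort, against 1.14%, 2.88% and 4.34% of all genes. In MRL/MpJ they were Col3a1, Col5a1 (0.71), Col5a3 (0.76) and the type VI genes (0.95 to 1.09). Col5a2, at 0.54, was not called there, but was without injured replicate 3 (0.62) or uninjured replicate 3 (0.60). In C57BL/6 types III, V and VI were called, with Col5a1 at 1.05 and Col6a2 at 1.38. In STR/ort Col5a3 rose the most after Col3a1 (1.53, SE 0.145, adjusted p = 4.85e-09), and Col1a1 was called as well.

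Col1a1 measured 15538, 14376, 12628, 12912 and 16647 CPM in injured and 7816, 9184, 10625, 9815 and 10807 CPM in uninjured STR/ort joints at 2-weeks. The joints did not overlap, and the fold change of 1.5 (log2 0.59, SE 0.115, adjusted p = 0.000434) was just past the fold threshold, so that RLE size factors, DESeq2 and other settings gave 0.54 to 0.58 and no call, as did leaving out 1 of 4 libraries (injured replicate 1 or 5, uninjured replicate 1 or 2, at 0.52 to 0.57). Col1a2, 1.42-fold higher (adjusted p = 0.00159), and Col1a1 in C57BL/6, 1.31-fold higher (adjusted p = 0.0309), passed the p threshold alone. Muscle markers summed to 74002 to 106001 CPM in injured and 63723 to 105355 CPM in uninjured STR/ort joints at 2-weeks, and 0 of the 12 were called in any strain by edgeR, with 2 at an unadjusted p under 0.05 in STR/ort. Other markers moved with the collagens at 2-weeks. Of the 7 fibroblast markers, 2 were higher in injured joints of MRL/MpJ, 3 in C57BL/6 and 3 in STR/ort, where they summed to 593 to 708 CPM in injured and 330 to 434 CPM in uninjured joints. Of the 4 tendon markers 2, 3 and 4 were higher, and of 7 cartilage markers 2, 3 and 3. Their part in the collagen values was not tested.

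The injury response at 1-week was not found to differ between strains for any of the 9 genes by edgeR without replicate blocks. Against MRL/MpJ the STR/ort response differed by −0.84 for Col3a1 (SE 0.299, adjusted p = 0.184) and −0.76 for Col6a3 (adjusted p = 0.133), with 3 genes at an unadjusted p under 0.05 and 0 called by DESeq2, where 0.884% of all genes were called. Against C57BL/6 it differed by −0.67 for Col3a1 (adjusted p = 0.354) and −0.87 for Col6a3 (adjusted p = 0.0853), with 3 at an unadjusted p under 0.05 and 1, Col6a3, called by DESeq2, where 0.491% of all genes were called. C57BL/6 and MRL/MpJ differed in 0 of 9 by either tool, with 0 at an unadjusted p under 0.05 and 0% of all genes called. Uninjured replicate 3 of STR/ort had the lowest level of all 9 genes in its group (Col3a1 2723 CPM), and without it Col3a1 (−1.07) and Col6a3 (−0.90) were called against MRL/MpJ and Col6a3 (−1.01) against C57BL/6. Leaving out a library that is low among uninjured joints makes the response smaller by construction. With the replicate numbers as blocks in edgeR, Col6a3 was called against MRL/MpJ (−0.73, adjusted p = 0.0341) and against C57BL/6 (−0.83, adjusted p = 0.0130), and Col6a2 against C57BL/6 (−0.69, adjusted p = 0.0459). The labels do not say whether these numbers mark the same mouse at 1-week. Deviations of same-numbered STR/ort joints correlated at 0.10 to 0.23, which was not set against joints of unlike numbers.

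At 2-weeks, Col5a2 alone responded more in STR/ort than in MRL/MpJ (0.72, SE 0.16, adjusted p = 0.0256), where 0.433% of all genes were called higher. Joints of the same mouse are paired at 2-weeks by their labels, and with the mouse as a block Col5a2 was not called (0.72, adjusted p = 0.0659) while Col5a3 was (0.82, adjusted p = 0.0293). The call of Col5a2 was also lost without any 1 of 8 libraries (0.64 to 0.70). Between STR/ort and C57BL/6, 0 of 9 were called by edgeR and DESeq2 and 2 had an unadjusted p under 0.05 (0.0462% of all genes called). Between C57BL/6 and MRL/MpJ, 0 were called by both and 1 had an unadjusted p under 0.05 (0% of all genes called).

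The relation of the types to each other was examined as ratios within a library, which do not depend on the scaling of the library. Per unit of transcript length, Col3a1 was 0.164 ± 0.0136 (SD, n = 4) of Col1a1 in uninjured and 0.833 ± 0.176 (SD, n = 5) in injured MRL/MpJ joints at 1-week. In C57BL/6 the ratio was 0.268 ± 0.0915 and 0.913 ± 0.125 (SD, n = 5 each). In injured STR/ort joints at 1-week it was 1.32 ± 0.142 (SD, n = 5), the only group mean above 1, against 0.615 ± 0.175 (SD, n = 4) in uninjured joints. The ratio rose by 2.32 on the log2 scale in MRL/MpJ, 1.82 in C57BL/6 and 1.14 in STR/ort at 1-week (exact permutation test, two-sided, adjusted p = 0.0336 in MRL/MpJ and STR/ort). A test of 5 against 5 libraries cannot give an exact p below 0.00794 and one of 5 against 4 none below 0.0159.

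**Figure D4:**
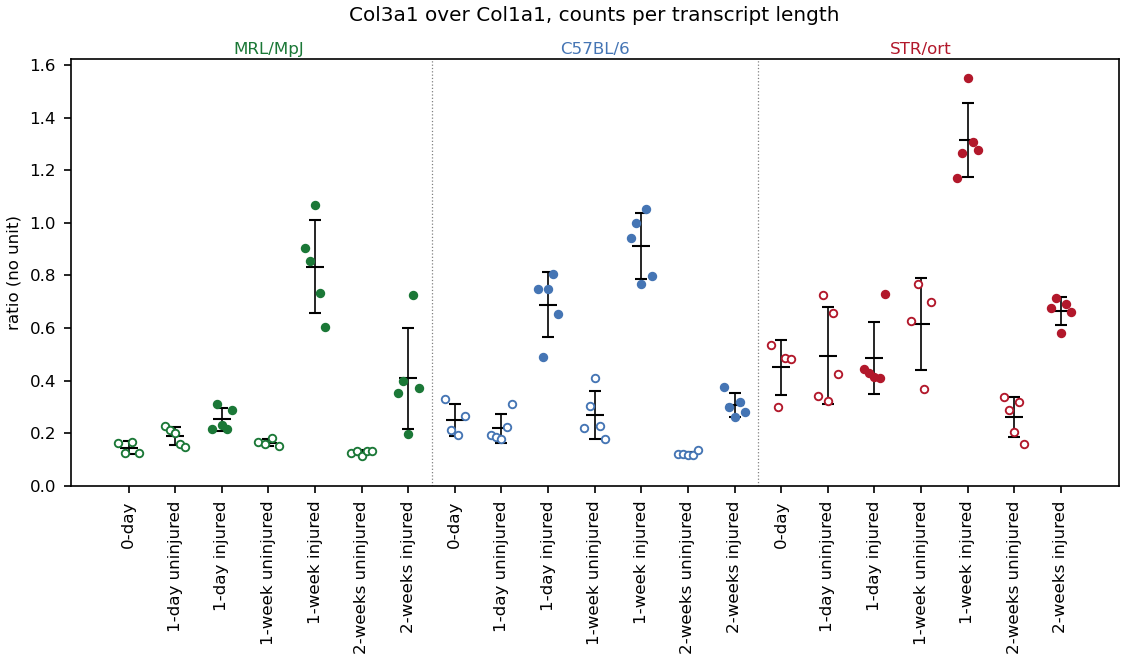
Ratio of Col3a1 to Col1a1 per unit of transcript length in each library on a linear axis from 0, by strain, time and joint, with mean ± SD. Filled points are injured joints. Injured STR/ort joints at 1-week average 1.32, and MRL/MpJ joints at 0-day average 0.145.

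Of 72 ratios compared after injury, 8 pairs of genes in 9 comparisons adjusted together, 37 passed an adjusted p of 0.05. Col3a1, Col5a1 and Col6a1 each rose relative to Col1a1 in 7 of the 9 comparisons, all except MRL/MpJ and STR/ort at 1-day, where Col3a1 to Col1a1 differed by 0.42 (adjusted p = 0.0571) and 0.02 (adjusted p = 0.988). In C57BL/6 it had risen by 1.67 at 1-day (exact p = 0.00794, adjusted p = 0.0229). At 2-weeks the rise was 1.57 in MRL/MpJ, 1.31 in C57BL/6 and 1.40 in STR/ort.

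Fewer ratios passed between the chains of types I and VI. Col1a2 relative to Col1a1 passed in 2 comparisons, at 2-weeks, by −0.05 in MRL/MpJ and −0.08 in STR/ort. Col6a2 relative to Col6a1 rose by 0.14 in MRL/MpJ at 2-weeks and differed by −0.16 in STR/ort at 1-week. Col6a3 relative to Col6a1 rose at 1-day in MRL/MpJ (0.44) and STR/ort (0.37, exact permutation adjusted p = 0.0229), although Col6a3 itself was not called in STR/ort. Within type V, Col5a2 fell relative to Col5a1 in 6 comparisons and rose in 1, STR/ort at 1-day, and Col5a3 relative to Col5a1 rose in 2 and fell in 1. At 0-day 0 of 24 ratios passed between strains by the exact permutation test, though 7 were at the smallest p that 4 against 4 libraries can give, 0.0286, and the smallest adjusted p was 0.098. The per-length ratio of Col1a2 to Col1a1 had group means of 0.773 to 0.874 at 2-weeks and 0.934 to 1.19 at the other times. That of Col5a2 to Col5a1 had 1.97 to 2.58 at 2-weeks and 2.74 to 5.09 otherwise. For Col6a3 to Col6a1 these were 0.490 to 0.562 and 0.310 to 0.467. Batch and time cannot be told apart in these shifts.

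The uninjured contralateral joints were set against the joints at 0-day, a comparison in which time after injury and age cannot be told apart. At 1-day 0 of the 9 genes were called against 0-day by edgeR in any strain, where 0.0924% of all genes were called in MRL/MpJ, 0.0693% in C57BL/6 and 9.92% in STR/ort. The numbers at an unadjusted p under 0.05 were 1, 7 and 6, and DESeq2 called 0 in each. In C57BL/6 Col3a1 measured −0.61 (adjusted p = 0.426). In STR/ort Col3a1 was 1.43-fold higher (adjusted p = 0.0421) and Col5a2 1.45-fold (adjusted p = 0.0025), under the fold threshold, and with library size alone as the scaling 5 genes were called there.

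By 1-week the uninjured joints of C57BL/6 and STR/ort had moved in opposite directions. Col1a1 measured 9010, 11208, 10736 and 13194 CPM in C57BL/6 at 0-day and 4161, 3937, 4634, 6380 and 7009 CPM in uninjured C57BL/6 joints at 1-week. No library overlapped, and the level at 1-week was 0.461 of that at 0-day (log2 −1.12, SE 0.179, adjusted p = 5.43e-06). In C57BL/6, 8 of 9 genes were called lower, against 4.84% of all genes, with Col1a2 at −1.10, Col3a1 at −1.06, Col5a1 at −0.92, Col5a2 at −0.96 and the type VI genes at −0.86 to −1.04. Col5a3, at 0.688-fold (adjusted p = 0.0321), was under the fold threshold. These uninjured joints are also the reference of the injury comparison at 1-week, where 8 of the 9 genes were higher in injured joints.

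In STR/ort, 7 of 9 genes were called higher in uninjured joints at 1-week than at 0-day, against 5.37% of all genes. Col6a3 was 2.40-fold higher (log2 1.26, adjusted p = 3.03e-08), with 291, 257, 333 and 305 CPM at 0-day and 915, 852, 489 and 618 CPM at 1-week. All 1-week joints were above all 0-day joints. Col3a1 was 2.07-fold higher (1.05, SE 0.211, adjusted p = 5.86e-05) and the others were Col5a1 (0.63), Col5a2 (0.77), Col5a3 (0.80), Col6a1 (0.97) and Col6a2 (1.07), the call of Col5a1 being lost without uninjured replicate 1 of 1-week (0.50). Type I was not called, at 0.56 for Col1a1 (adjusted p = 0.0188, 1.47-fold) and 0.32 for Col1a2 (adjusted p = 0.174). In MRL/MpJ 0 of 9 were called by edgeR or DESeq2, 0 had an unadjusted p under 0.05, and 0% of all genes were called.

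**Figure D5:**
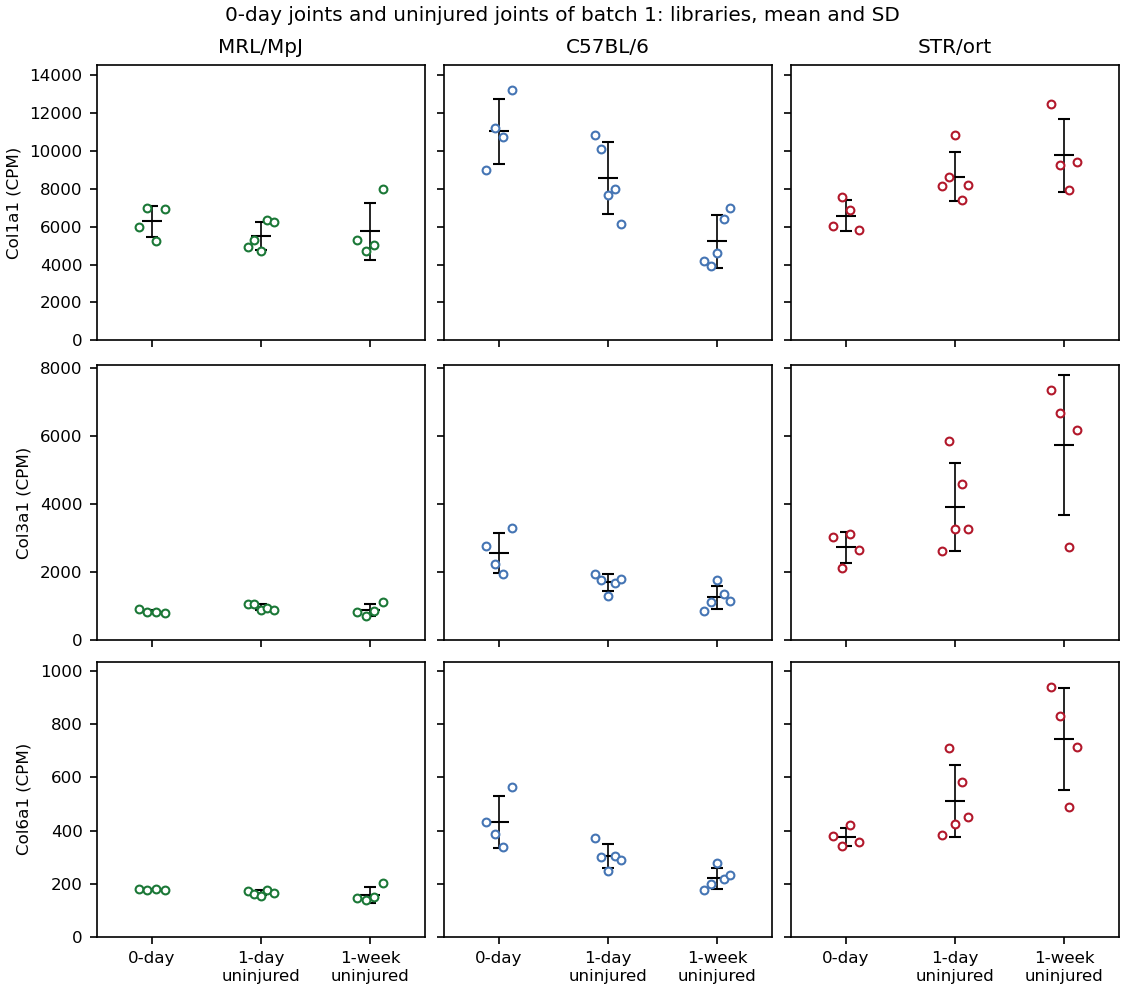
Level of Col1a1, Col3a1 and Col6a1 (rows) in joints without injury of each strain (columns) at 0-day and, from contralateral joints, 1-day and 1-week, as CPM on linear axes from 0. Points are libraries and bars mean ± SD. The C57BL/6 means at 1-week are below those at 0-day for each gene, the STR/ort means are above, and those of MRL/MpJ stay close, with 840 and 878 CPM for Col3a1.

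The change of uninjured joints to 1-week differed between strains in 23 of 27 tests, which were not planned beforehand. Against C57BL/6 the change in STR/ort was higher for all 9 genes, by 2.12 for Col3a1 and Col6a3 and by 1.34 for Col5a3 at the least, where 11.7% of all genes were called higher. Against MRL/MpJ it was higher for 7, by 0.98 for Col3a1 and 1.31 for Col6a3, against 4.75%. The change in C57BL/6 was lower than in MRL/MpJ for 7, by −1.13 for Col3a1 and −1.0 for Col1a1, against 1.54%. This last count rests on single libraries: it was 0 without MRL/MpJ replicate 3 of 0-day and at most 8 without another. The 3 comparisons share libraries, and all 3 strains were in batch 1.

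Other tissues changed in the same joints. In uninjured C57BL/6 joints all 8 bone markers were lower at 1-week than at 0-day, summing to 1401 to 2027 CPM against 2376 to 3338 CPM, as were 7 cartilage, 5 of 7 fibroblast and 3 of 4 tendon markers, while 1 muscle marker was higher. In uninjured STR/ort joints 11 of 12 muscle markers were lower, while 4 of 6 macrophage, 3 cartilage, 2 fibroblast, 2 bone and 1 tendon marker were higher. In MRL/MpJ 0 of the bone, cartilage and muscle markers were called by edgeR or had an unadjusted p under 0.05. The part of the make-up of the cut tissue in the collagen values was not tested, and with the muscle covariate 14 of the 15 calls were made, the call of Col5a1 in STR/ort (0.42) being lost.

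Injured joints at 1-week were also set against those at 1-day. All 9 genes rose in STR/ort, against 9.02% of all genes, from log2 0.83 for Col1a2 to 2.38 for Col3a1 (SE 0.196, adjusted p = 7.25e-16, 5.22-fold), with Col6a1 at 2.29 and Col5a1 at 2.21. In MRL/MpJ 6 rose, against 2.26%, namely Col3a1 (1.76), Col5a1 (1.10), Col5a3 (1.20) and the type VI genes (0.99 to 1.53). In C57BL/6 0 were called by edgeR or DESeq2 and 4 had an unadjusted p under 0.05, against 4.47% of all genes called in either direction. The C57BL/6 value of Col3a1 was 0.10 and that of Col6a2 was 0.56, 1.47-fold. Of the 7 fibroblast markers 6 rose in STR/ort, 4 in MRL/MpJ and 0 in C57BL/6, and of the 4 tendon markers 4, 2 and 1. The difference between strains in this course was not tested.

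In injured joints at 1-week all 9 genes were higher in STR/ort than in MRL/MpJ, where 15.0% of all genes were called higher, by log2 1.08 for Col1a2 to 1.94 for Col5a3. All 9 were also higher than in C57BL/6, where 13.3% were, by 0.84 for Col1a2 to 1.54 for Col3a1 (2.90-fold). The uninjured joints showed the same counts, 9 against MRL/MpJ (13.7% of all genes) and 9 against C57BL/6 (13.1%). There Col3a1 was 6.61-fold higher than in MRL/MpJ (log2 2.72, SE 0.237, adjusted p = 2.16e-10) and Col6a3 5.59-fold. In injured joints 5 of 7 fibroblast and 4 of 4 tendon markers were higher in STR/ort than in either other strain, and in uninjured joints 4 or 5 and 3 or 4. The muscle covariate ended the type I calls in all 4 of these comparisons (Col1a1 0.24 to 0.42, Col1a2 0.16 to 0.31), and with RUVg the uninjured values of Col1a1 against MRL/MpJ turned to −0.22. Between C57BL/6 and MRL/MpJ at 1-week, Col5a1 (0.62) and Col6a3 (0.63) were called in injured joints, against 4.78%, neither of them without C57BL/6 injured replicate 5 (0.43 and 0.54), and 0 genes in uninjured joints by edgeR or DESeq2, against 8.53% (4 at an unadjusted p under 0.05). Without uninjured replicate 4 of MRL/MpJ, 3 were called.

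At 2-weeks STR/ort was above MRL/MpJ for all 9 genes in injured joints (11% of all genes) and for 7 in uninjured joints (7.97%). Col3a1 was 3.03-fold higher in injured and 2.73-fold higher in uninjured joints, and Col6a3 3.73-fold and 2.89-fold. STR/ort exceeded C57BL/6 for 7 genes in injured (5.40%) and 4 in uninjured joints (4.92%), with Col1a1 at −0.00 and −0.20, not called. C57BL/6 exceeded MRL/MpJ for 6 genes in injured (7.31%) and 3 in uninjured joints (6.01%), the 3 being Col1a1 (0.64), Col1a2 (0.63) and Col3a1 (0.60).

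Genes that act on these collagens were counted by role, to be read against the 2.93%, 4.75% and 5.67% of all genes called higher at 1-week in MRL/MpJ, C57BL/6 and STR/ort, and the 1.53% and 4.26% called higher at 1-day in MRL/MpJ and C57BL/6. Of 13 genes for folding and hydroxylation of procollagen, 10 rose in injured STR/ort joints at 1-week, 8 in C57BL/6 and 4 in MRL/MpJ, and 8 in C57BL/6 and 1 in MRL/MpJ at 1-day. At 1-day 0 were called in STR/ort by edgeR, with 4 at an unadjusted p under 0.05. P4ha3, a subunit of prolyl 4-hydroxylase, rose in STR/ort at 1-week by log2 2.28 (SE 0.194, adjusted p = 1.32e-09), in C57BL/6 by 2.58 and in MRL/MpJ by 3.06, and Plod1, a lysyl hydroxylase, by 0.86 in STR/ort and 0.72 in C57BL/6. At 1-day P4ha3 rose by 2.54 in C57BL/6 and 1.24 in MRL/MpJ and measured 0.60 in STR/ort without a call. Of 7 genes for trimming of procollagen, 4 rose in STR/ort, 5 in C57BL/6 and 1 in MRL/MpJ at 1-week. Adamts3, which removes an amino-terminal propeptide, rose by 1.02 in STR/ort and Tll1, of the family that removes the other end, by 1.33.

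Of 5 crosslinking enzymes, 4 rose at 1-week in each strain. Lox, a lysyl oxidase, rose at 1-day in all 3 strains, by 1.11 in MRL/MpJ, 1.56 in C57BL/6 and 1.08 in STR/ort, so it was called in injured STR/ort joints at the time when 0 of the 9 collagen genes were. Loxl2, another lysyl oxidase, rose by 1.40 in STR/ort and 1.17 in C57BL/6 at 1-week. Of 10 partners in fibril assembly, 9 rose in MRL/MpJ, 8 in C57BL/6 and 6 in STR/ort at 1-week, and 1 fell in STR/ort. Postn, which encodes periostin, rose in STR/ort by 3.02 (SE 0.258, adjusted p = 1.35e-09) against 1.76 in MRL/MpJ and 1.93 in C57BL/6, and Col12a1, a collagen on the surface of fibrils, by 1.99, 0.79 and 1.40 in the same order. The gene that fell was Tnxb, a tenascin, at −1.24, named after its value was seen, where 612 of all 17310 genes were called lower.

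Of 7 genes for degradation and uptake of collagen, 3 rose in each strain at 1-week and 1, Mmp8, fell in STR/ort (−0.64). Mmp14, a membrane-bound collagenase, rose by 0.93 in MRL/MpJ, 1.26 in C57BL/6 and 1.53 in STR/ort, and Mmp2, a gelatinase, by 1.35, 1.67 and 1.27. Of 10 collagen receptors, 3 rose in each strain, among them Antxr1 (1.58, 1.68 and 1.58) and the integrin chain Itga11 (0.69, 1.29 and 1.43). Of 9 measured inducers of collagen transcription, 1 rose in MRL/MpJ, 2 in C57BL/6 and 1 in STR/ort at 1-week. Tgfb3, a TGF-β ligand, rose by 0.84 in STR/ort, and Tgfbr2, one of its receptors, was 1.31-fold higher, under the fold threshold.

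Of 5 other fibrillar collagens, which are mostly cartilage collagens, 0 were called by edgeR at 1-day or 1-week in any strain, though 3 in C57BL/6 at 1-day and 2 in STR/ort at 1-week had an unadjusted p under 0.05, with Col11a1 at log2 0.42 (adjusted p = 0.143) and Col11a2 at −0.55 (adjusted p = 0.101) in STR/ort at 1-week. At 2-weeks 2 of the 5 rose in STR/ort, where 4.34% of all genes did, Col2a1 (0.91) and Col27a1 (0.60). Outside the injury comparisons all 5 were higher in C57BL/6 than in MRL/MpJ at 0-day (median log2 0.87), where 9.64% of all genes were. All 5 were lower in uninjured C57BL/6 joints at 1-week than at 0-day (−1.02), where 4.84% were. Of 3 further type VI chains, Col6a4, Col6a5 and Col6a6, 1 rose in MRL/MpJ, 2 in C57BL/6 and 0 in STR/ort at 1-week. At 2-weeks 1, 2 and 1 rose, where 1.14%, 2.88% and 4.34% of all genes did. At 1-day 1, 2 and 1 were lower in injured joints, Col6a6 in every strain (−1.15, −1.07 and −2.36). Of all 17310 genes, 86, 232 and 467 were called lower there. At 0-day Col6a4 and Col6a5 were lower in STR/ort and in C57BL/6 than in MRL/MpJ, with Col6a5 at −1.88 and −2.13, where Col6a1, Col6a2 and Col6a3 were higher. Of all 17310 genes, 1114 and 1083 were called lower in these comparisons. Col6a6 was 2.01-fold higher in C57BL/6 than in MRL/MpJ and measured log2 −0.13 in STR/ort against MRL/MpJ, not called. At 1-week Col6a5 measured 0.74 in C57BL/6, called, and −0.58 in STR/ort (adjusted p = 0.0489, 0.669-fold), and Col6a4 1.47 in STR/ort (adjusted p = 0.0881).

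Over the 21 group means, type I had lower correlations with the other types than these had among themselves. These are descriptions over points that share libraries and scaling and come from both batches, whose part was not tested. The 2 type I chains had a Pearson correlation of 0.90 on the log2 scale. The type VI chains had 0.95 to 1.00 among themselves, and types III, V and VI together 0.86 to 1.00. Type I with the other types had 0.63 to 0.84. Within groups these ranges overlapped, at 0.30 to 0.74 for type I with the other types and 0.66 to 0.97 among types III, V and VI, with 0.93 for the 2 type I chains. Marker lists were compared by the mean log2 level of their genes. With the fibroblast markers Col1a1 and Col1a2 had 0.73 and 0.82 over the group means, Col3a1 0.96 and the type VI genes 0.94 to 0.97. With the bone markers Col1a1 and Col1a2 had 0.09 and 0.43. The values within groups were in another order. Over the deviations of 100 libraries from their group means, Col1a1 and Col1a2 followed the bone markers (0.73 each) and cartilage markers (0.63 and 0.64). They ran against the muscle markers (−0.51 and −0.49). Col3a1 followed the fibroblast markers (0.83), as did type VI (0.73 to 0.78), whereas Col1a1 and Col1a2 had 0.13 and 0.17 with them.

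The genes most like the 9 together were found by the Pearson correlation of their 21 group means with the mean of the 9, among 14408 genes with a mean of at least 1 CPM. They were Mrc2 (0.985), an uptake receptor for collagen, Ptgfrn (0.980), Tspan11 (0.978), Slc27a3 (0.978), the laminin chain Lama4 (0.976), Fndc3b (0.976), the collagen Col16a1 (0.974), Ephb3 (0.974), Glis2 (0.974) and Arsi (0.974). In injured STR/ort joints at 1-week they were higher by log2 0.62 for Fndc3b to 1.49 for Arsi, where 5.67% of all genes were called higher. The genes were picked over these same groups, among others of both batches, so this rise is no separate result. With Spearman's correlation 5 of these 10 were among the first 10, and over 100 libraries also 5.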

How the data were processed

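RNA was measured in 100 knee joint libraries from poly(A)-selected total RNA. The authors aligned reads to mm10 with TopHat2 (version 2.0.11) and counted reads per RefSeq gene with featureCounts, per the submitters' processing notes, and deposited the counts as whole numbers without normalization. Whether strand was used in counting is not given in the sources used here. Of 17313 entries, 3 repeats were dropped, which left 17310 genes, of which 24 have names turned into dates. The authors' filter of at least 2 counts in 5 libraries removed 0 genes. Total counts were 6182016 to 20986027 (median 10582592), and the counts of Col5a3 were the lowest of the 9 genes (175 or more in a library). Of 190 pairs of libraries within groups, 0 were identical.

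The test was edgeR's quasi-likelihood test (edgeR 4.0.16 under R 4.3.3) with TMM factors and Benjamini-Hochberg adjustment over all genes, and calls needed an adjusted p under 0.05 and a fold above 1.5. Each time point had its own fit, with strain and joint combined into groups, and the 70 libraries of batch 1 were 1 fit for comparisons over time. Standard errors were derived from the F statistic and the log2 fold change. Ratios used counts plus 0.5 and exact permutation tests (scipy 1.17.1). The genes, the comparisons and the lists of related genes and markers were chosen with earlier results of these data known. All 9 genes are named throughout. From each list of related genes the 2 with the smallest adjusted p in injured STR/ort joints at 1-week are named, others only as stated, with the 10 genes most like the 9. Scripts were tested on simulated data.

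Alternatives were RLE size factors, library size alone, TMM without muscle markers, scaling by housekeeping genes, RUVg with 1 or 2 factors, DESeq2 (version 1.42.0), no filter, filterByExpr, fits of the compared groups only, replicate blocks and leaving out each library. Those with a muscle covariate and without 4 libraries chosen by their Col3a1 level were added after the data were seen. The tests of a strain difference in the change of uninjured joints were also not planned beforehand. Replicate numbers mark the same mouse at 2-weeks by the labels. Correlations of the deviations of same-numbered joints were 0.13 to 0.26 in C57BL/6 and STR/ort and −0.16 to 0.08 in MRL/MpJ at 2-weeks, 0.10 to 0.23 in STR/ort at 1-week, and not all over 0.1 in the other groups.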

Additional observations from a re-analysis of the deposited data

Results flagged for a closer look

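In 9 of 189 gene and group pairs a single library lay far from the rest of its group. About 1 in 20 groups would pass the cutoff by chance if the pairs were independent. They are not, since the genes share libraries, and the cause was not tested. Replicate 5 of injured C57BL/6 joints at 1-week was high for Col1a2 (10858 CPM, others 5957 to 7320), Col5a1 (898, others 499 to 594), Col5a2 (1701, others 1097 to 1264) and Col6a1 (1156, others 750 to 867). Replicate 4 of uninjured MRL/MpJ joints at 1-week was high for Col1a2 (7453 CPM, others 4787 to 5123), and replicate 3 of injured MRL/MpJ joints at 1-week for Col3a1 (6039, others 4883 to 5158). Replicate 3 of injured MRL/MpJ joints at 2-weeks was low for Col5a1 (253 CPM, others 363 to 407), replicate 4 of uninjured STR/ort joints at 2-weeks was high for Col5a1 (431, others 360 to 381), and replicate 1 of injured STR/ort joints at 1-day was low for Col5a3 (79.2, others 90.5 to 95).

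In 33 tests the effect itself differed between strains, as log2 differences. For the injury response at 1-day these were STR/ort minus C57BL/6 for Col3a1 (−1.97), Col5a1 (−1.35), Col5a2 (−0.92), Col5a3 (−0.82), Col6a1 (−1.25), Col6a2 (−1.32) and Col6a3 (−0.97), and C57BL/6 minus MRL/MpJ for Col3a1 (1.16) and Col5a1 (0.93). At 2-weeks it was STR/ort minus MRL/MpJ for Col5a2 (0.72), a call that was lost with the mouse as a block.

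For the change of uninjured joints from 0-day to 1-week they were STR/ort minus C57BL/6 for Col1a1 (1.67), Col1a2 (1.42), Col3a1 (2.12), Col5a1 (1.55), Col5a2 (1.73), Col5a3 (1.34), Col6a1 (1.98), Col6a2 (2.10) and Col6a3 (2.12). Against MRL/MpJ the STR/ort change differed for Col3a1 (0.98), Col5a1 (0.69), Col5a2 (0.90), Col5a3 (0.84), Col6a1 (1.13), Col6a2 (1.16) and Col6a3 (1.31). C57BL/6 minus MRL/MpJ differed for Col1a1 (−1.0), Col1a2 (−0.97), Col3a1 (−1.13), Col5a2 (−0.83), Col6a1 (−0.85), Col6a2 (−0.94) and Col6a3 (−0.80).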

How the results depend on the processing

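The counts of calls over the 9 genes were, as reported and over the other settings, 17 (5 to 17) between strains at 0-day, 55 (51 to 56) after injury, 57 (52 to 61) and 54 (46 to 55) between strains in injured and uninjured joints, 10 (8 to 18) for strain differences in the injury response, 15 (14 to 21) in contralateral joints against 0-day, 15 (14 to 17) in injured joints at 1-week against 1-day, and 23 (19 to 25) for strain differences in the contralateral change. Leaving out 1 library gave 16 to 17, 53 to 56, 55 to 60, 50 to 57, 9 to 13, 14 to 18, 15 to 17 and 16 to 24. The count of 5 came from RUVg with 2 factors, and that of 18 from leaving out 4 libraries chosen by their own Col3a1 level, a choice that by itself makes the STR/ort response at 1-week smaller. Ratios changed after injury in 37 tests, 29 to 39 without 1 library, and 0 when paired by replicate, since 5 pairs cannot give an exact p under 0.0625. With Spearman's correlation and over 100 libraries 5 of the 10 most similar genes were shared.

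Called values reversed only with RUVg, in uninjured joints at 1-week. Col1a1 in STR/ort minus MRL/MpJ was −0.22 with 1 factor and −0.22 with 2, Col1a2 −0.30 and −0.21, and Col1a2 in STR/ort minus C57BL/6 −0.084 and −0.051. The cause was not tested. With replicate blocks 54 calls were made after injury, and 13 strain differences in the injury response. The 3 strain differences called at 1-week with the block are given in the report. Counting error is largest for Col5a3, the scarcest of the 9 genes, and 4 or 5 libraries a group limit the values near the fold threshold.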
